A study of Bos taurus with 34 samples.

Results

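The genes described here are the 47 whose symbol begins with NDUF, taken by symbol alone from the 14161 genes of a comparison of cattle liver with and without the SLICK1 allele of PRLR, the prolactin receptor gene. They hold 39 subunit names and 8 assembly factors (NDUFAF1 to NDUFAF8), and all 47 NDUF genes of the deposited annotation are among the genes compared. Liver RNA came from 34 animals labelled Senepol. The comparison concerns TruSeq libraries from daughters of 2 slick bulls, Blanco and Lone Ranger (RANGER in the sample labels): 10 daughters labelled SLICK with 1 copy of the allele (5 of each bull) and 8 labelled FREE with 0 copies (7 of Lone Ranger and 1 of Blanco). A further 16 SMARTer libraries, from 5 animals with 1 copy (S1) and 11 with 2 copies (S2), are not analysed here. Ages and treatments are not given in the labels used here.

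Complex I, the NADH dehydrogenase of the inner mitochondrial membrane, passes electrons from NADH to ubiquinone and pumps protons. It is shaped like an L, with a peripheral arm in the matrix that holds the NADH site (N module) and the quinone site (Q module), and a membrane arm that holds the proton pumps. It is built from 44 subunits, of which 37 are nuclear and 7 are encoded by mitochondrial DNA. Assembly factors join it during construction and leave before it is complete. In liver it reoxidises the NADH made by fatty acid oxidation, amino acid breakdown and the citric acid cycle.

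The values are those of the authors' deposited table. Each gene there has a log2 fold change, read from the table's name as SLICK minus FREE, and an average level in log2 CPM (counts scaled to library size). An F score comes with its p-value, unadjusted and adjusted. The sign could not be checked against values of single animals, so every direction given below rests on that reading of the name. Values of single animals are not analysed here, because no library column carries a name that a sample label holds. In their place, an approximate 95% interval was computed for each gene from the deposited log2 fold change and F score. Blanco is the sire of 5 of 10 SLICK and 1 of 8 FREE daughters, and the sources used here do not say whether sire was a term of the authors' fit, so the part of sire in any value below was not tested. PRLR itself, on chromosome 20, stood at -0.046 log2 units (-0.41 to 0.31) in the authors' deposited table, a transcript level that does not check the genotype.

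Most NDUF genes had slightly higher values in SLICK liver, and none passed the test. Of the 47, 41 had a positive log2 fold change and 6 a negative one. The median was 0.11 log2 units, against -0.0071 over all 14161 genes, of which 48.2% were positive. The range ran from -0.22 for the assembly factor NDUFAF4 to 0.28 for the subunit NDUFA12, a difference of 21.4% on the linear scale. For 21 of the 47 the value lay within 0.1 log2 units of 0.

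In the authors' deposited table (edgeR is the tool the submitters name), 0 of 47 had an adjusted p under 0.05, with 14 at an unadjusted p under 0.05. Of all genes, 0.501% passed the adjusted threshold. The smallest adjusted p of a member was 0.101, for NDUFB6. At an unadjusted p under 0.05 there were 13 members higher in SLICK (27.7%), where 7.22% of all genes were higher at that p. Among genes at or above 4 log2 CPM, where 37 of the 47 members lie, 11.8% of all genes and 12 of the 37 members (32.4%) were higher at that p. A single member, NDUFAF4, was lower at that p (2.13%), where 8.79% of all genes were. Members and groups were chosen with earlier results of these data known, so these shares are a description.

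**Figure D1:**
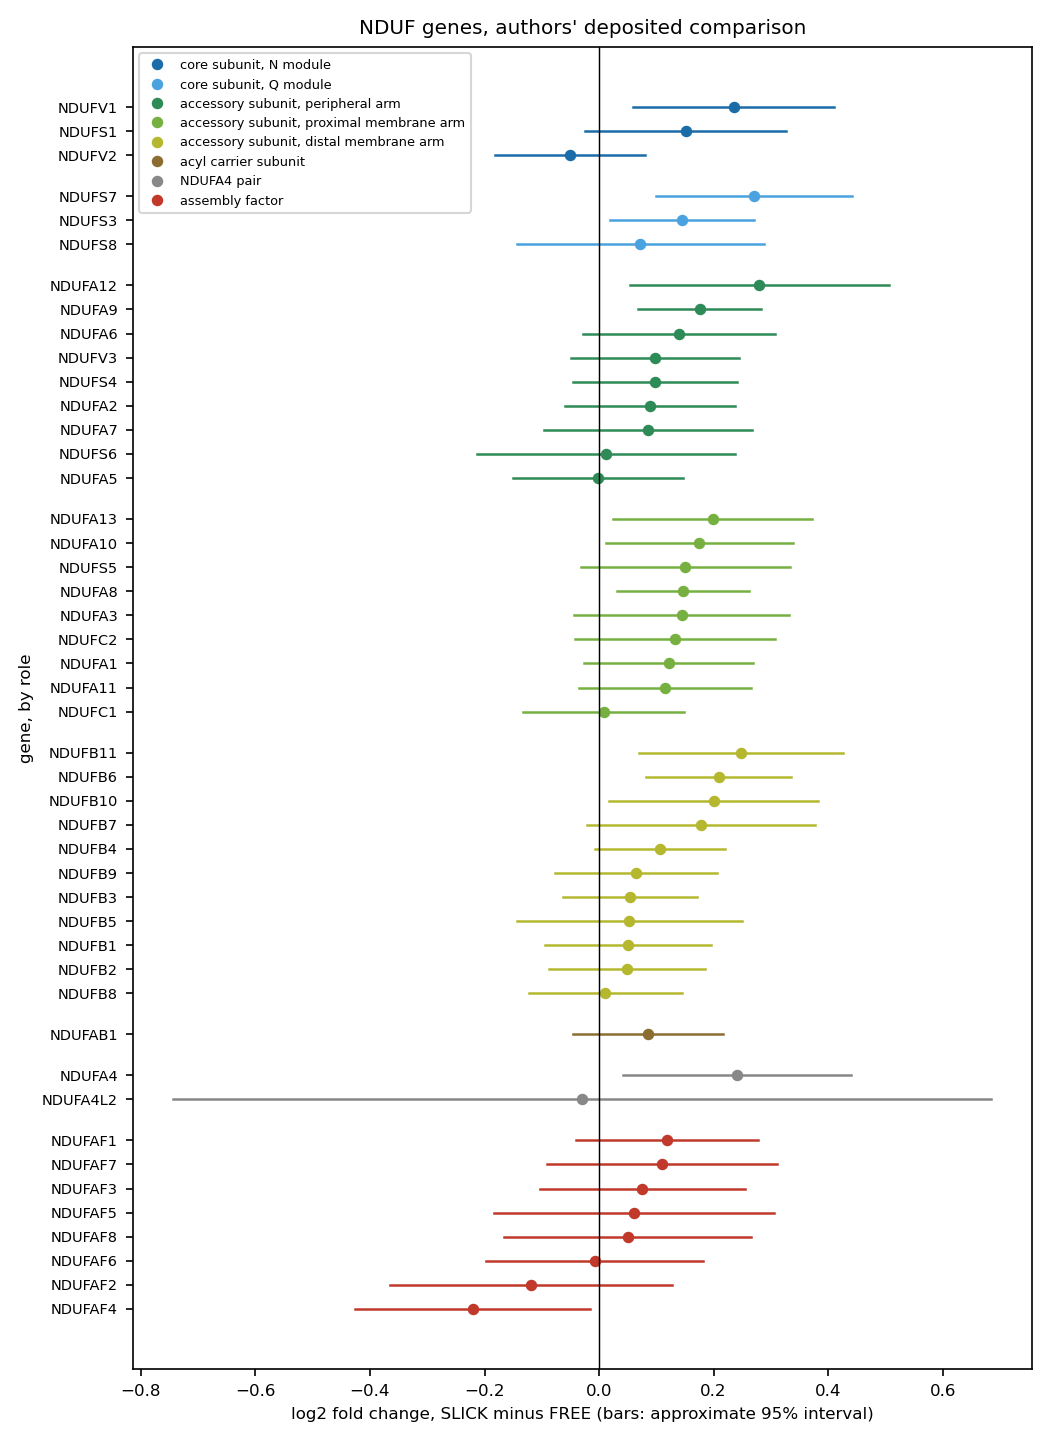
Log2 fold change of 46 of the 47 NDUF genes (x axis, SLICK minus FREE, log2 units), arranged by role on the y axis. Points are the authors' deposited values and bars are approximate 95% intervals. Most points lie right of 0, 33 of 46 bars cross 0, and the assembly factors NDUFAF4 and NDUFAF2 lie furthest left.

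The nuclear core subunits carry the flavin, the iron-sulphur clusters and part of the quinone site. Of the 6 described here, 5 had a positive value, with a median of 0.15, and 3 had an unadjusted p under 0.05, all of them higher in SLICK. Higher at that p were 7.22% of all genes, and 11.8% of those at or above 4 log2 CPM.

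NDUFS7 carries the last iron-sulphur cluster before ubiquinone. Its value in the authors' deposited table was 0.27 (approximate 95% interval 0.10 to 0.44, p = 0.00364, adjusted p = 0.112), the second highest of the 47. NDUFS3, also of the Q module, was at 0.14 (0.019 to 0.27, p = 0.0261, adjusted p = 0.242) in the authors' deposited table. NDUFS8, which holds iron-sulphur clusters upstream of NDUFS7, was at 0.072 with an interval across 0 (-0.14 to 0.29, p = 0.491) in the authors' deposited table. The intervals of NDUFS7, NDUFS3 and NDUFS8 overlap, and the differences between these genes were not tested.

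In the N module, NDUFV1 binds NADH and the flavin. The authors' deposited table puts it at 0.23 (0.059 to 0.41, p = 0.0115, adjusted p = 0.173). NDUFS1, which carries several iron-sulphur clusters, was at 0.15 (-0.024 to 0.33, p = 0.0865) by the authors' deposited table. NDUFV2, the direct partner of NDUFV1, had the one negative value among the core subunits described, -0.05 (-0.18 to 0.081, p = 0.431), in the authors' deposited table. NDUFV1 and NDUFV2 stood at 5.07 and 6.04 log2 CPM per kb of gene length. Their intervals overlap, and the difference between them was not tested.

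NDUFS7 lies on chromosome 7 from 43805788 to 43814284 and NDUFV1 on chromosome 29 from 45455657 to 45468982 (ARS-UCD1.2, outer bounds of the annotated exons). NDUFS8 lies on chromosome 29 from 45559236 to 45563283, in the same stretch as NDUFV1, and the values of these neighbours were 0.072 and 0.23.

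Accessory subunits surround the core and are needed for its assembly and stability. Of 30, 29 had a positive value, with a median of 0.11, and 8 (26.7%) had an unadjusted p under 0.05, all of them higher in SLICK. Higher at that p were 7.22% of all genes, and 11.8% of those at or above 4 log2 CPM. The exception in sign was NDUFA5 of the peripheral arm, at -0.0018 (-0.15 to 0.15) in the authors' deposited table.

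Of the 9 accessory subunits of the peripheral arm, 8 were positive (median 0.097). NDUFA12, which takes its place late in assembly, had the highest value of all members, 0.28 (0.054 to 0.51, p = 0.0180, adjusted p = 0.206), in the authors' deposited table. It was also the least abundant complex I subunit, at 3.32 log2 CPM per kb. NDUFA9, a dehydrogenase-like subunit next to the quinone site, was at 0.18 (0.068 to 0.28, p = 0.00292, adjusted p = 0.103) in the authors' deposited table, with the narrowest interval of the 47. The other 7 ran from -0.0018 for NDUFA5 to 0.14 for NDUFA6, with NDUFS6, NDUFA7, NDUFA2, NDUFS4 and NDUFV3 between them.

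The proximal membrane arm joins the Q module to the first proton pumps. All 9 of its accessory subunits were positive, with a median of 0.14. NDUFA13, also known as GRIM19, was at 0.20 (0.024 to 0.37, p = 0.0278) and NDUFA10, a kinase-like subunit, at 0.18 (0.012 to 0.34, p = 0.0370) in the authors' deposited table. NDUFA8, a subunit of the intermembrane space side, was at 0.15 (0.032 to 0.26, p = 0.0150) in the authors' deposited table. After adjustment these p-values lay between 0.191 for NDUFA8 and 0.282 for NDUFA10. NDUFC1 was the lowest of the 9 at 0.0079, and NDUFA11, NDUFA1, NDUFC2, NDUFA3 and NDUFS5 lay from 0.12 to 0.15.

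The 11 NDUFB subunits sit in the distal membrane arm. All 11 were positive, with a median of 0.064, and they fell into a higher and a lower set of values. NDUFB11, encoded on the X chromosome, was at 0.25 (0.069 to 0.43, p = 0.00904, adjusted p = 0.157) in the authors' deposited table. NDUFB6 was at 0.21 (0.082 to 0.34) with the smallest p of all members (0.00270) in the authors' deposited table. NDUFB10 was at 0.20 (0.018 to 0.38, p = 0.0328, adjusted p = 0.272) in the authors' deposited table, and NDUFB7 at 0.18 with an interval across 0. The remaining NDUFB subunits ran from 0.011 for NDUFB8 to 0.11 for NDUFB4, with NDUFB2, NDUFB1, NDUFB5, NDUFB3 and NDUFB9 from 0.049 to 0.064. This gap is a description of the estimates and was not tested. NDUFAB1, the mitochondrial acyl carrier protein and also a membrane arm subunit, was at 0.085 (-0.046 to 0.22).

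NDUFB6 lies on chromosome 8 from 11504625 to 11521008, NDUFB11 on X from 85528354 to 85531959, NDUFA12 on chromosome 5 from 24684273 to 24711486 and NDUFA9 on chromosome 5 from 105474032 to 105495946 (ARS-UCD1.2).

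A pair of NDUF names belongs elsewhere. NDUFA4 is now known as a subunit of cytochrome c oxidase (complex IV), and NDUFA4L2 is its paralog, known for induction by hypoxia. NDUFA4 was at 0.24 (0.041 to 0.44, p = 0.0206, adjusted p = 0.217) and NDUFA4L2 at -0.029 (-0.74 to 0.68, p = 0.932) in the authors' deposited table. NDUFA4 was the most abundant member per length at 7.02 log2 CPM per kb, and NDUFA4L2 the least at -3.19. NDUFA4L2 also had the widest interval of the 47, and a difference under 1.55 log2 units in either direction would not have passed the adjusted threshold. Without this pair, 35 of 37 complex I subunits were positive, and the median stayed at 0.12.

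The NDUFAF assembly factors were less uniform in direction than the subunits. Of 8, 5 were positive and 3 negative, with a median of 0.055 (mean 0.0086), against 36 positive of 39 subunit names with a median of 0.12 (mean 0.12). At an unadjusted p under 0.05, 0 of these factors were higher and 1 was lower (12.5%), against 13 (33.3%) and 0 subunit names. Over all genes, 7.22% were higher and 8.79% lower at that p, and counts from 8 factors cannot be told from those shares. The subunit median was higher by 0.066 log2 units. The median standard error of 1 member was 0.081, which is not the error of a difference between class medians. Genes are not replicates, so the difference between the classes has no p-value.

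NDUFAF4 works with NDUFAF3 on the early Q module. NDUFAF4 had the lowest value of the 47, -0.22 (-0.43 to -0.015, p = 0.0367, adjusted p = 0.281) in the authors' deposited table, while NDUFAF3 was at 0.075 (-0.10 to 0.25, p = 0.389). The factors differed in abundance, NDUFAF3 at 5.29 and NDUFAF4 at 2.06 log2 CPM per kb. NDUFAF6, which is needed for making the subunit ND1, was at -0.0073 (-0.20 to 0.18, p = 0.937) in the authors' deposited table.

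NDUFAF7, a methyltransferase of early assembly, was at 0.11 (-0.091 to 0.31, p = 0.265) in the authors' deposited table. NDUFAF5 and NDUFAF2 are each tied to a single subunit, and their values stood below that of the subunit. NDUFAF5, which hydroxylates an arginine of NDUFS7, was at 0.061 (-0.18 to 0.31, p = 0.608) in the authors' deposited table, 0.21 below NDUFS7. NDUFAF8, which stabilises NDUFAF5, was at 0.05 (-0.17 to 0.27, p = 0.633) in the authors' deposited table. NDUFAF2 is a paralog of NDUFA12 that holds its place before the last step. It was at -0.12 (-0.37 to 0.13, p = 0.326) in the authors' deposited table, 0.40 below NDUFA12, the wider of these gaps. The intervals of factor and subunit overlap in both pairs, and the differences were not tested.

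NDUFAF1 belongs to the complex that builds part of the membrane arm. It had the highest value of the 8, 0.12 (-0.04 to 0.28, p = 0.133) in the authors' deposited table.

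The NDUFAF assembly factors were also less abundant, which moves with the difference between the classes. Per kb of gene length their median level was 2.28 log2 CPM, against 5.21 for complex I subunits, and 7 of 8 lay below the least abundant complex I subunit. NDUFAF3 was the exception, and NDUFAF5 was the lowest factor at 0.35. Among the 37 members at or above 4 log2 CPM on average, which include NDUFAF1 and NDUFAF3, 36 were positive. Among the 10 members below that level, 5 were positive and 5 negative. Over all genes, 57.2% were positive at or above 4 log2 CPM (median 0.022) and 41.2% below it (median -0.039). Below 4 log2 CPM the medians of the 4 subunit names and the 6 assembly factors differed by 0.0029, but their means differed by 0.096, and the medians by 0.029 once NDUFA4L2 was left out, so the size of the gap at low levels depends on the summary used. The part of level in the difference between the classes was not tested beyond these counts.

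**Figure D2:**
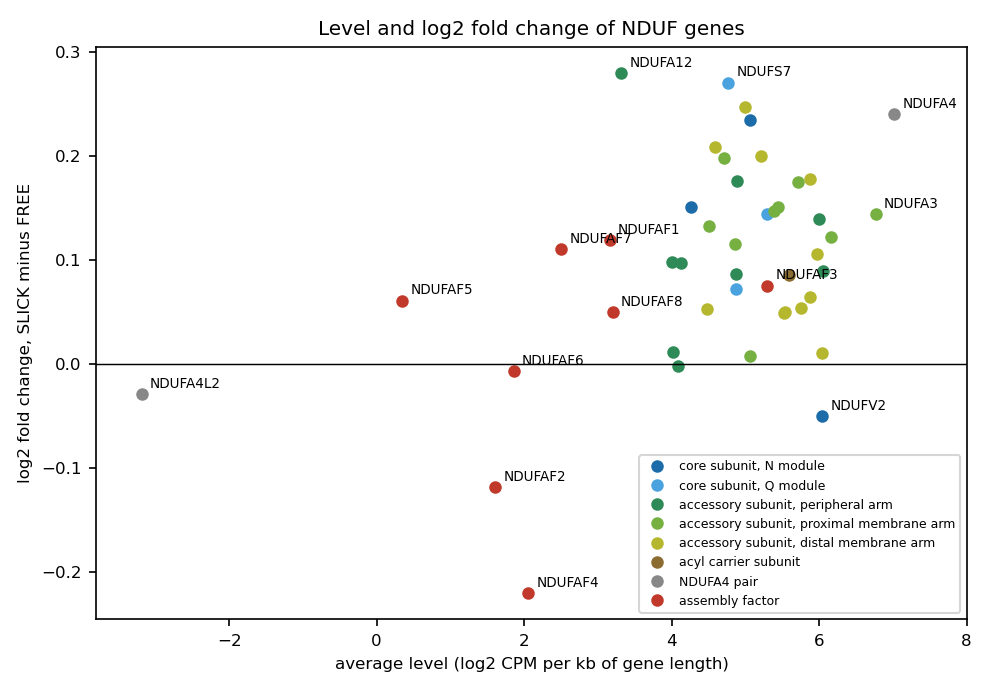
Average level (x axis, log2 CPM per kb of gene length) and log2 fold change (y axis, SLICK minus FREE) of 46 of the 47 NDUF genes, coloured by role. Assembly factors other than NDUFAF3 lie left of the complex I subunits, and NDUFAF4 and NDUFAF2 lie lowest.

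Across the 47 members, log2 fold change and average log2 CPM had a Pearson r of 0.54 and a Spearman rho of 0.51. Within the 37 complex I subunits they were 0.19 and 0.28. With the level per kb of gene length they were 0.42 and 0.27 across all members, and -0.13 and -0.097 within the complex I subunits. These correlations are across genes of the same libraries, and genes are not independent replicates. Among complex I subunits, levels per kb ran from 3.32 for NDUFA12 to 6.76 for NDUFA3, a small subunit of the membrane arm. Of the core subunits described, NDUFV2 was the most abundant per length at 6.04 and NDUFS1 the least at 4.26. The spread of these levels over animals is not known here, so the order of neighbours cannot be read.

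To pass the adjusted threshold with its own standard error, a complex I subunit would have needed a median difference of 0.33 log2 units, and an assembly factor 0.44. The intervals also bound the changes from above: among complex I subunits none reached beyond -0.21 or 0.51 log2 units. These intervals take the authors' model as given and cover the spread between libraries as that model estimated it.

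Members were spread over 24 chromosomes, and on 18 of these every member had a positive value. Many of these chromosomes hold a single member, so this count largely restates the number of positive members. PRLR lies on chromosome 20 from 38971752 to 39100563 (ARS-UCD1.2), and 3 members share that chromosome. NDUFS4, a peripheral arm subunit known for its loss in Leigh syndrome, lies 13.5 Mb from PRLR (25400418 to 25516036) and was at 0.097 (-0.046 to 0.24, p = 0.172) in the authors' deposited table. NDUFAF2 lies 20.6 Mb away (18210359 to 18370943), with the value given above. NDUFS6, a zinc-binding subunit, lies 31.7 Mb away on the other side (70839103 to 70844383) and was at 0.012 (-0.21 to 0.24, p = 0.914) in the authors' deposited table. The 3 intervals on this chromosome cross 0.

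Overlapping gene models, by the outer bounds of their annotated exons, touch 10 members. A gene on the opposite strand overlaps NDUFA2, NDUFS5, NDUFB5, NDUFB9, NDUFB10, NDUFB11, NDUFA4L2 and NDUFAF7, and one on the same strand overlaps NDUFA13 and NDUFAF6. Whether the exons themselves overlap was not examined. Strand use in counting the TruSeq libraries is not stated in what was used here, so reads of these genes and their partners may not be separate.

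The 7 complex I subunits of the mitochondrial genome were all positive, with a median of 0.28, and 1 of 47 NDUF genes exceeded that median. ND5, a proton pump subunit, was at 0.32 (0.025 to 0.61, p = 0.0347, adjusted p = 0.276), ND4 at 0.26 (p = 0.107) and ND6 at 0.40 (p = 0.147) in the authors' deposited table. Their intervals were wider than those of most nuclear subunits: the median standard error was 0.16, against 0.072 for the 37 nuclear subunits. None of the 7 passed the adjusted threshold.

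Of 13 complex I assembly factors with other names, 10 were positive and 3 negative, with a median of 0.13. At an unadjusted p under 0.05, 6 were higher (46.2%) and 0 lower, where 7.22% and 8.79% of all genes were. None passed the adjusted threshold. NUBPL, which delivers iron-sulphur clusters to complex I, was at 0.40 (0.064 to 0.73, p = 0.0222) in the authors' deposited table. TMEM126A was at 0.26 (p = 0.0142) and DMAC1 at 0.22 (p = 0.0101), both factors of the distal membrane arm, in the authors' deposited table. The median of these 13 lay near that of the complex I subunits (0.12), where that of the NDUFAF genes was 0.055. Their median level was 3.82 log2 CPM, against 3.19 for the NDUFAF genes, so these lists are not matched in level. The NDUFAF genes and these factors were not tested against each other.

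Cofactor supply genes were mixed. Of 15 iron-sulphur cluster assembly genes, 9 were positive (median 0.054) and none passed the adjusted threshold. At an unadjusted p under 0.05, 3 (20%) were higher and 0 lower, where 7.22% and 8.79% of all genes were. The ferredoxin FDX1 was at 0.35 (adjusted p = 0.0698), the scaffold ISCU at 0.24 (adjusted p = 0.105) and the cysteine desulphurase NFS1 at 0.18 (adjusted p = 0.290) in the authors' deposited table. The other ferredoxin of the list, FDX2, was at 0.015 (p = 0.825) in the authors' deposited table. Of 11 coenzyme Q synthesis genes, 10 were positive (median 0.11). At an unadjusted p under 0.05, 3 of them (27.3%) were higher and 0 lower. COQ6, higher in value, was the only gene of these lists to pass the adjusted threshold, where 0.501% of all genes passed. COQ6, a hydroxylase of the quinone ring, was at 0.34 (0.21 to 0.48, p = 3.90e-05, adjusted p = 0.0411) in the authors' deposited table. COQ4 was at 0.29 (adjusted p = 0.187) and the kinase-like COQ8A at 0.21 (adjusted p = 0.281) in the authors' deposited table.

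Nuclear regulators of mitochondrial genes were mostly negative in value, and their counts cannot be told from those of all genes at low levels. Of 12, 4 were positive (33.3%) and 8 negative, with a median of -0.053, and none passed the adjusted threshold. Their median level was 3.74 log2 CPM, and of all genes below 4 log2 CPM 41.2% were positive, with a median of -0.039. At an unadjusted p under 0.05, 0 regulators were higher and 1 was lower (8.33%), where 8.79% of all genes were lower. TFB1M, which methylates mitochondrial ribosomal RNA, was at -0.31 (-0.59 to -0.031, p = 0.0312, adjusted p = 0.264) in the authors' deposited table. GABPA, an ETS factor of respiratory gene promoters, was at 0.12 (p = 0.0947) and the coactivator PPRC1 at -0.15 (p = 0.134) in the authors' deposited table.

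**Figure D3:**
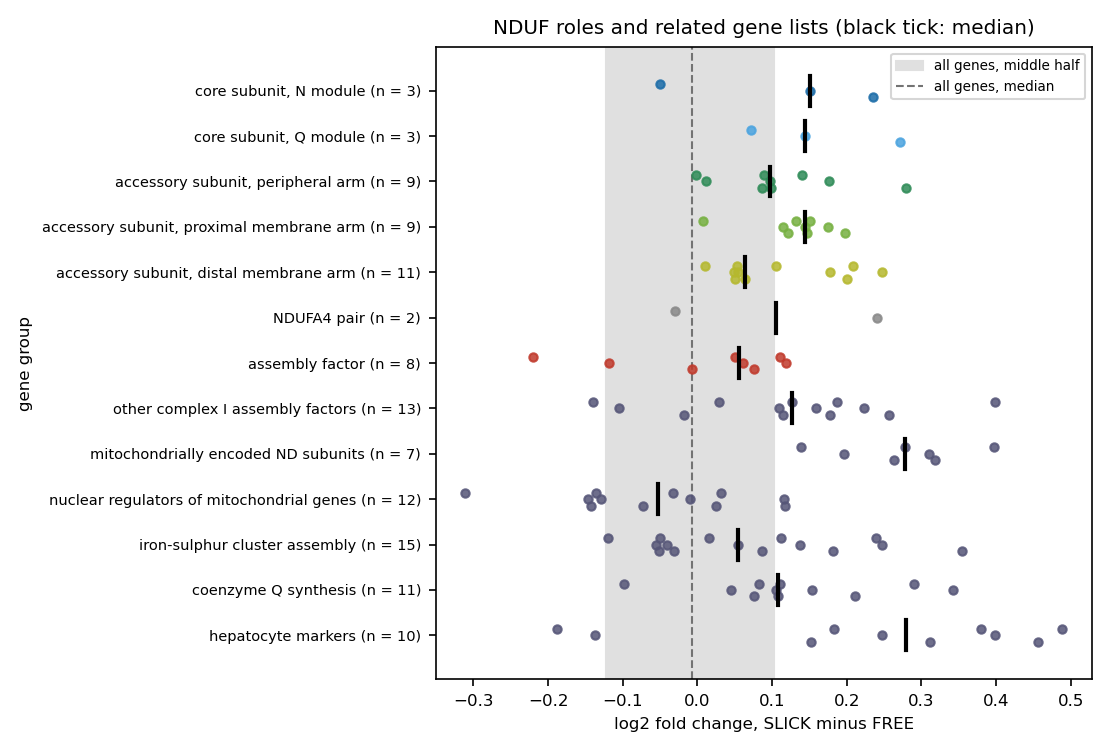
Log2 fold change (x axis, SLICK minus FREE) of single genes, as points, in the NDUF roles of more than 1 plotted gene and in related lists (y axis), with the median of each group as a black tick. The grey band runs from the lower to the upper quartile of all genes and the dashed line their median. Medians of the NDUF subunit roles lie right of the dashed line, and that of the nuclear regulators lies left of it.

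A further list held complex II subunits, the complex II assembly factors SDHAF1 and SDHAF2, and other enzymes that feed the quinone pool. Of its 10 genes, 7 were positive (median 0.12), and none passed the adjusted threshold. At an unadjusted p under 0.05, 4 were higher (40%) and 1 lower (10%), where 7.22% and 8.79% of all genes were. The complex II subunits SDHC and SDHA were at 0.40 (adjusted p = 0.137) and 0.26 (adjusted p = 0.154) in the authors' deposited table. SQOR, which oxidises sulphide, was at -0.20 (adjusted p = 0.188) in the authors' deposited table. Nuclear genes of complexes II to V, taken by symbol, give a wider background: 43 of 45 were positive with a median of 0.15, and 19 (42.2%) were higher and 1 lower at an unadjusted p under 0.05. The 37 complex I subunits had 12 higher (32.4%) and 0 lower, and nothing in these counts sets them apart from the rest of the chain.

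**Figure D4:**
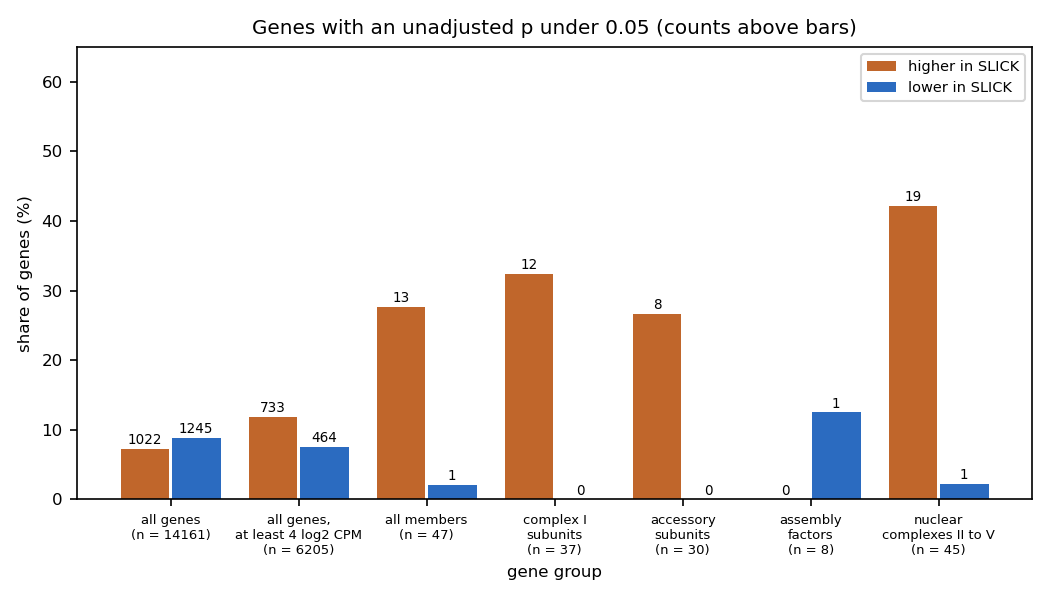
Share of genes (y axis, percent) with an unadjusted p under 0.05 that were higher (orange) or lower (blue) in SLICK, by gene group on the x axis, with the number of genes above each bar. The 8 NDUFAF assembly factors show 0 higher and 1 lower, and the 37 complex I subunits 12 higher and 0 lower. Of all genes, 7.22% were higher and 8.79% lower.

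Markers of hepatocytes and of bile ducts mostly differed in sign in the same comparison. Hepatocyte markers were abundant (ALB at 15.9 log2 CPM in the authors' deposited table), so the labelled tissue shows its defining markers. Of 10, 8 were positive with a median of 0.28, and 1 of 47 NDUF genes lay above that median. By p, CPS1 led (0.49, adjusted p = 0.110), followed by APOC3 (0.46, adjusted p = 0.134) and TF (0.40, adjusted p = 0.161) in the authors' deposited table. The negative hepatocyte markers were APOA1 (-0.19, adjusted p = 0.718) and FGB (-0.14, adjusted p = 0.650) in the authors' deposited table. All 7 measured cholangiocyte markers of 8 listed were negative, with a median of -0.80. At an unadjusted p under 0.05, 5 were lower (71.4%), where 8.79% of all genes were. CLDN4 (-1.67), SPP1 (-2.44) and KRT7 (-1.03) had adjusted p from 0.0599 to 0.0658 in the authors' deposited table. No marker of either list passed the adjusted threshold. Their part in the NDUF values was not tested, and in bulk liver more cells of a type and more RNA per cell cannot be told apart.

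Other cell types gave medians from -0.16 to 0.25, where that of the complex I subunits was 0.12. Of 8 markers each, 6 were positive for Kupffer cells and macrophages (median 0.13), 7 for endothelial cells (0.12), 6 for T and NK cells (0.089) and 2 for stellate cells and fibroblasts (-0.16). Of 6 B and plasma cell markers 3 were positive (-0.054), and of 3 measured erythroid markers of 6 listed 2 were positive (0.25). No marker of these lists passed the adjusted threshold. In the authors' deposited table the macrophage markers of smallest p were CD68 at -0.28 (p = 0.0391), VSIG4 at -0.25 (p = 0.105) and C1QA at 0.20 (p = 0.112). Of the endothelial markers in the authors' deposited table, TEK was at 0.12 (p = 0.141), STAB2 at 0.18 (p = 0.211) and KDR at 0.13 (p = 0.216). Matrix genes of stellate cells and fibroblasts were lower in value, with LUM at -0.54 (p = 0.00946), COL1A2 at -0.38 (p = 0.0406) and COL1A1 at -0.31 (p = 0.0628) in the authors' deposited table. The antibody-secreting cell genes JCHAIN and MZB1 were at -0.35 (p = 0.0122) and -0.50 (p = 0.0251), and the B cell marker MS4A1 at 0.18 (p = 0.337), in the authors' deposited table. CD3D was at 0.14 (p = 0.210), GZMB at 0.41 (p = 0.303) and CD2 at -0.12 (p = 0.380) in the authors' deposited table. The haemoglobin genes HBA and HBB were at -1.17 (p = 0.0119) and 0.65 (p = 0.0636), and AHSP at 0.25 (p = 0.380), all at low levels, in the authors' deposited table. The part of these cell types in the NDUF values was not tested.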

How the data were processed

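Bovine liver RNA was sequenced from TruSeq (18 samples) and SMARTer (16 samples) libraries, per the labels' protocols. Per the submitters' processing notes, the build was ARS-UCD1.2 and the tools included edgeR, featureCounts of Subread and HISAT2 (version 2.1.0), with no role stated. For slick against free, the authors deposited log2 values per gene (a fold change and an average CPM), per the file headers. They also deposited an F score and its p-value, with an adjusted one. The sources used here give neither the model terms nor the gene filter. The table has 14246 rows; 85 that repeat a gene were dropped, leaving 14161 genes. The 4 tables hold 70 library columns whose names no sample label holds, and none was used, so depth per sample is not given here. The planned count fits were not run for that reason.

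The F score and p-value imply 18.7 denominator degrees of freedom (346 genes examined). The approximate standard error is the size of the log2 fold change divided by the square root of F, and the 95% interval uses Student's quantile at those degrees of freedom. The fold changes the authors deposited may be shrunken by a prior count, which makes the interval approximate. The difference needed to pass is that error times the quantile at the largest unadjusted p that passed. The calculation of the interval and of the adjustment was tried on simulated data only. The model terms of the authors' fit are not known here, so that trial cannot show how close the interval is for the deposited values. Levels per length are the deposited average log2 CPM less log2 of the deposited gene length in kb. Gene models are Ensembl release 100, per the file headers. All 47 symbols matched RefSeq protein coding genes (ARS-UCD2.0, names only).

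Members, roles and the 15 gene lists were chosen with earlier results of these data known. Full values are given for every assembly factor, the core subunits, members with an unadjusted p under 0.05, the 5 highest and 5 lowest members, those on chromosome 20, the NDUFA4 pair, PRLR, and the 3 genes of each other list with the smallest p. Other members are named with their log2 fold change or within a range, so that each is accounted for. COX7A1, UQCRB, FDX2, KRT19, ELF3, APOA1 and FGB were chosen after their values were seen. The values of 1 NDUF subunit are not reported here, and it is left out of the plots of single genes and the core subunit summary; counts and medians over larger groups include it. Complexes II to V were taken by symbol after seeing the values. Alternatives are in the closing section. Python 3.11.15, numpy 2.4.6, pandas 2.3.3, scipy 1.17.1 and matplotlib 3.10.9 were used.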

Additional observations from a re-analysis of the deposited data

How the results depend on the processing

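The count of NDUF genes past the threshold was 0 by the deposited adjusted p under 0.05, 0 with a Benjamini-Hochberg adjustment over the distinct genes, 0 at an adjusted p under 0.10, and 14 at an unadjusted p under 0.05. Adjusted over the distinct genes, 2 members (NDUFB6 at 0.0957 and NDUFA9 at 0.0980) lay under 0.10, a reading chosen after seeing the data. The share of members with a positive value was 87.2% (Wilson 95% interval from 74.8% to 94.0%, although genes of the same libraries are not independent). It was 97.3% among members of at least 4 log2 CPM, which leaves out 10 genes, 6 of them assembly factors. It was 88.9% without the NDUFA4 pair and 89.4% less the median of all genes. Less the median of genes at or above 4 log2 CPM, an alternative chosen after seeing the data, it was 80.9%. The subunit median exceeded the assembly factor median by 0.066, by 0.035 at 4 log2 CPM or more, by 0.055 without the core subunits, and by 0.11 with means. Below 4 log2 CPM it exceeded it by 0.0029, by 0.029 without NDUFA4L2 and by 0.096 with means, all chosen after seeing the data. The median member level was 4.99 log2 CPM per kb and 5.07 with no length correction. Fits that leave out a library, use DESeq2 or drop the count filter were not run. No paired analysis was possible because no library column could be tied to a sample. Low level limits NDUFA4L2 and most assembly factors.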

Other observations

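Among the nuclear genes of complexes II to V, COX7A1, the heart and muscle isoform of a complex IV subunit, stood apart from the direction of the NDUF genes. In the authors' deposited table it was at -0.76 log2 units (approximate 95% interval -1.20 to -0.33, p = 0.00154, adjusted p = 0.0876), at an average of 2.44 log2 CPM. The other negative gene of these complexes was UQCRB, at -0.062 (-0.20 to 0.075, p = 0.352) in the authors' deposited table. Both were chosen after their values were seen.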
